A study of Mus musculus with 20 samples.

Results

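The clustered replication-dependent histone genes of the mouse were followed in RNA from sorted skin cells. They were found by symbol as the protein-coding H1, H2A, H2B, H3 and H4 genes of the clusters Hist1 (chromosome 13), Hist2 (chromosome 3), Hist3 (chromosome 11) and Hist4 (chromosome 6). The rule gave 67 of the 51123 genes in the count table: 6 H1, 18 H2A, 18 H2B, 12 H3 and 13 H4 genes, of which 54 lie in Hist1, 10 in Hist2, 2 in Hist3 and 1 in Hist4. Another 3 matching genes are annotated as pseudogenes (Hist1h2aj, Hist1h2al and Hist3h2bb-ps) and were left out.

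The cells were sorted for the tdTomato reporter and came from epidermis, where they are labelled as keratinocytes, or from spontaneous squamous cell carcinomas of the skin (cSCC), where they are labelled as cSCC. Deletion relied on K14cre, a transgene that expresses Cre recombinase under the keratin 14 promoter of keratinocytes. The young groups, from mice of 100 to 120 days, were wild type (WT young), K14cre;Wwoxfl/fl (WKO young), K14cre;p53fl/fl (PKO young) and K14cre;Wwoxfl/fl;p53fl/fl (DKO young), with 3 libraries each. Old wild-type epidermis (WT old) came from mice of 400 days or more and has 2 libraries, and carcinomas came from K14cre;p53fl/fl (PKO cSCC) and K14cre;Wwoxfl/fl;p53fl/fl (DKO cSCC) mice, 3 libraries each, with no age given. The wild-type samples are labelled only as such, and whether they carry K14cre was not stated. The labels call the libraries of a group biological replicates.

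Replication-dependent histone genes supply the core histones and linker histone H1 that package newly made DNA, and their transcripts accumulate as cells copy their genome in S phase. Most of these transcripts have no introns and no poly(A) tail. They end just after a short stem-loop in the 3′ end, which the stem-loop binding protein SLBP holds and which the U7 snRNP uses as a guide for cleavage. Libraries made from total RNA, as here, keep such transcripts, whereas poly(A) selection loses most of them.

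The stem-loop is shown because it is what sets these transcripts apart. The letters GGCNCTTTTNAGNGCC, searched on the transcript strand, were in a coding transcript of 42 of the 67 genes (62.7%) and of 45 of 21901 protein-coding genes in all (0.205%) in the GENCODE transcripts of mouse build GRCm38. Of the 25 genes without the letters, 18 have a longest coding transcript under 550 bases, and so do 17 of the 42 with them. Capitals mark the stem-loop in the lines below: the form of Hist1h3b was in 26 genes, that of Hist1h4d in 7, that of Hist1h3c in 6 and that of Hist2h2ac in 1. The other 2 of the 42 genes, Hist1h4i and Hist2h4, share a form that is not shown.
Hist1h3b: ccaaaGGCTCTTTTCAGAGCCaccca
Hist1h4d: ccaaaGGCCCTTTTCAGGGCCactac
Hist1h3c: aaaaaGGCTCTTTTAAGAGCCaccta
Hist2h2ac: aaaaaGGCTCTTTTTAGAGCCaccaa

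Many H2A and H2B genes share 1 promoter and are transcribed away from each other: 12 such pairs had starts less than 400 bases apart. The pair Hist2h2ac and Hist2h2be, with starts 239 bases apart, is shown because its members had log2 fold changes of opposite sign in the carcinomas. The RefSeq promoter of Hist2h2ac (GRCm38.p6, chr3:96220831-96221130, minus strand) is given below, with capitals on the octamer, which octamer-binding factors such as Oct-1 recognise in H2B promoters, and on the TATA box.
Hist2h2ac: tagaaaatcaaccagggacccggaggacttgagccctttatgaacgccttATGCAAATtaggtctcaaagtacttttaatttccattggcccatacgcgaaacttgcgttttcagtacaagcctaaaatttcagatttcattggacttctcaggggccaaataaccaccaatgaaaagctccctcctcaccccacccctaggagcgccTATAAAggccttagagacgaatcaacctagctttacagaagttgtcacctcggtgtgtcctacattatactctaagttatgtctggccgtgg
Searched on both strands of the 61 promoters found for these genes, the octamer ATTTGCAT was in 14 (23.0%, all of them H2A or H2B genes) against 1.97% of 27025 promoters of the same length. CCAAT was in 52 (85.2%) against 41.1%, and was in 3 of 12 H4 promoters but in all of the others. TATAAA was in 35 (57.4%) against 15.7%. The H1 box AAACACA was in 5 of 6 H1 promoters against 8.22% of all promoters.

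Total estimated counts ran from 11930153 to 17199262 per library, of which the clustered histone genes took 6256 to 84517. Levels are CPM, counts scaled to a common library total, after trimmed mean of M-values (TMM) scaling. Mitochondrial ribosomal RNA took 14.999% to 40.9% of the counts. The library labelled DKO young 3 had Wwox at 7.11 CPM and Trp53 at 20.5 CPM, while its 2 group mates did not exceed 0.928 and 3.28 CPM. The library labelled DKO cSCC 3 had Trp53 at 45.9 CPM, while its 2 group mates did not exceed 2.78 CPM. By these levels both go against their labels. Among the PKO young libraries Trp53 was 6.03, 21.4 and 20.4 CPM, beside 31 to 40.1 CPM in WT young, so by that gene the libraries labelled PKO young 2 and 3 go against their label as well. Counts of called genes and the interaction tests are also given without these 4 libraries, while sums, shares and medians by type and cluster hold all libraries. Markers of other cell types differed between groups, and some of them also differed widely between libraries of 1 group. The 8 T and NK cell genes summed to between 1414 and 1826 CPM in the WT young libraries and to 3213 CPM in the library labelled PKO young 3, and the carcinomas held 13.5 to 75.1 CPM of them. The 5 erythrocyte genes summed to between 829 and 3487 CPM in WT young and to at most 233 CPM elsewhere. The 6 basal keratinocyte genes were lowest in WT young, with sums of 1228 to 2067 CPM, and the library labelled PKO young 3 had 2294 CPM. Their sums were 6920 and 2133 CPM in WT old and 8861 to 28035 CPM in the carcinomas. The 6 fibroblast genes summed to 2586 CPM in the library labelled DKO young 3, beside 26.04 and 6.85 CPM in its group mates. Their sums were 68.6, 2308 and 1890 CPM in PKO young, 1538, 24.0 and 114 CPM in WKO young and 681 to 1409 CPM in WT young. WT old had 31.3 and 484 CPM, and the carcinomas had 27.0 to 909 CPM. The libraries labelled DKO young 3, PKO young 2 and PKO young 3 thus held the highest fibroblast sums of the 20 libraries. The library labelled DKO cSCC 3 had 419 CPM. The 6 differentiated keratinocyte genes had mean sums of 643 CPM in WT young, 7636 CPM in WKO young, 4614 CPM in PKO young, 10961 CPM in DKO young and 5225 CPM in WT old. Their mean was 871 CPM in PKO cSCC, and the DKO cSCC libraries had 398, 2406 and 13923 CPM. The 4 melanocyte genes had mean sums of 364 CPM in WT young and 19.05 CPM in WT old, and 470 CPM in the library labelled DKO cSCC 3. The bearing of these cells on the histone levels, and on the Wwox and Trp53 levels, was not tested.

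All but 5 of the 67 genes passed the low-count filter in every comparison, so 62 were tested. The 5 left out were Hist1h1t, Hist1h2aa and Hist1h2ba, known as testis histone genes, together with Hist1h2bq and Hist2h3c1. Hist2h3c1 had no count in any library. The transcripts are so alike that reads are split between copies by estimation: 66 of the 67 genes share at least 1 stretch of 31 bases with another of the genes. With 1 other gene, 49 share more than 50% of such stretches and 8 more than 90%, counted over the shorter transcript of the pair. A level of 1 gene is therefore less certain than the sum over the family.

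Summed over the 67 genes, the level was 5974, 2128 and 2670 CPM in the PKO cSCC libraries and 3343, 4697 and 2804 CPM in the DKO cSCC libraries. It was 581 and 468 CPM in WT old, 785, 1197 and 1315 CPM in WT young and 1459, 1580 and 978 CPM in WKO young. In PKO young it was 1694, 1172 and 2382 CPM, and in DKO young 616, 686 and 1072 CPM. Every carcinoma library lay above every epidermis library with the exception of PKO cSCC 2, which lay below the library labelled PKO young 3. Without TMM scaling 4 of the 6 carcinoma libraries lay below that library, and 0 lay below any other epidermis library. WT old held the 2 lowest sums of the 20 libraries. In bulk samples, fewer cells in S phase and less histone RNA per cell cannot be told apart.

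**Figure D1:**
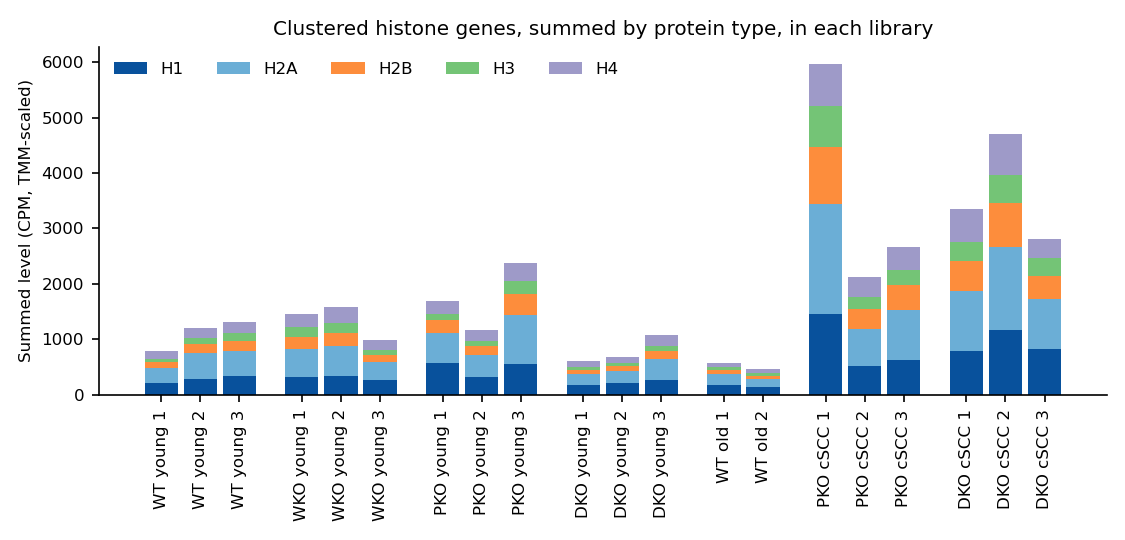
Summed level of the clustered histone genes (y axis, TMM-scaled CPM) in each of the 20 libraries (bars, by group), stacked by the type of histone encoded. The carcinoma bars stand between 2128 and 5974 CPM, and the bars of WT old, at 581 and 468 CPM, are the lowest.

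By histone type, H2A genes held the largest share of the summed CPM, with group means from 32.1% to 36.1%, followed by H1 at 24.0% to 29.5%. H4 held 14.7% to 17.7%, H2B 12.9% to 17.0% and H3 8.14% to 11.2%. The share of H2B was 17.0% ± 0.268 (SD, n = 3) in PKO cSCC and 16.03% ± 0.827 (n = 3) in DKO cSCC, beside 12.9% ± 1.01 (n = 2) in WT old and 13.6% ± 0.782 (n = 3) in WT young. CPM is not corrected for gene length, and H1 genes are longer than core histone genes, so these shares are shares of reads and not of transcripts.

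The first comparison asked how carcinomas differ from old wild-type epidermis. Nearly every clustered histone gene was higher in the carcinomas: 61 of 62 had a positive log2 fold change in PKO cSCC and 61 of 62 in DKO cSCC, and the exception in both was the H2B gene Hist2h2be. The median log2 fold change of the 62 genes was 3.10 in PKO cSCC and 3.23 in DKO cSCC, beside 0.06 and 0.02 over all genes tested. The mean summed level was 6.85-fold that of WT old in PKO cSCC and 6.89-fold in DKO cSCC. In each comparison 58 genes were higher in all 3 carcinoma libraries than in both WT old libraries and 1 was lower in all 3. Among all genes tested, 22.2% were higher and 22.8% lower without overlap in PKO cSCC, and 17.6% were higher and 17% lower in DKO cSCC.

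In the fit of the 8 carcinoma and WT old libraries, none of the 62 genes passed an adjusted p of 0.05 in edgeR's quasi-likelihood test in either comparison, where 0.00605% of all genes were called higher in PKO cSCC and 0% in DKO cSCC. At an unadjusted p under 0.05, 57 genes were higher and 1 lower in PKO cSCC, beside 14.6% and 13.1% of all genes. In DKO cSCC 56 were higher and 0 lower, beside 8.28% and 6.25% of all genes. The number of calls differed between fits. Without the low-count filter edgeR called 56 higher in PKO cSCC (2.95% of all genes) and 53 in DKO cSCC (1.40%). With all 20 libraries in the edgeR fit, 55 genes were called higher and 1 lower in PKO cSCC (10.5% and 10.9% of all genes) and 49 higher and 0 lower in DKO cSCC (2.48% and 1.86% of all genes). DESeq2 on the 8 libraries called 55 higher and 1 lower, and 54 higher and 0 lower. DESeq2 called 6.12% of all genes higher and 8.04% lower in PKO cSCC, and 2.7% and 1.93% in DKO cSCC. Leaving out PKO cSCC 2 gave 7 calls in PKO cSCC (0.350% of all genes higher), and no other omission of 1 library gave any in either comparison. Without the library labelled DKO cSCC 3 the median in DKO cSCC was 3.53.

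Linker histone genes were higher throughout. Hist1h1c (H1f2), which encodes linker histone H1.2 and had the highest level of the H1 genes, stood at 73.3 and 62.4 CPM in WT old, 513, 219 and 302 CPM in PKO cSCC and 310, 457 and 288 CPM in DKO cSCC. The carcinoma libraries did not overlap those of WT old, and its log2 fold change was 2.42 ± 0.46 (SE) in both. Hist1h1e (H1f4), which encodes H1.4, went from 64.7 and 40.3 CPM in WT old to 393, 158 and 169 CPM in PKO cSCC and 178, 268 and 292 CPM in DKO cSCC, again with no overlap. All 5 tested H1 genes were higher in both, with log2 fold changes of 2.27 to 3.95 and 2.26 to 3.74.

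All 17 tested H2A genes had positive fold changes in both comparisons. The most abundant was Hist2h2aa1 (H2ac18), at 107 and 77.8 CPM in WT old, 375, 259 and 380 CPM in PKO cSCC and 486, 452 and 335 CPM in DKO cSCC. The copy Hist2h2aa2 shares with it all 31-base stretches of the shorter of their transcripts, and the sum of the pair was 107 and 77.8 CPM in WT old and 294 to 519 CPM in the carcinomas. Hist1h2ap was at 12.6 and 7.48 CPM in WT old, 373, 90.1 and 108 CPM in PKO cSCC and 89.0, 148 and 69.5 CPM in DKO cSCC. Neither gene's carcinoma libraries overlapped WT old. Fold changes of Hist2h2aa2, Hist1h2ah and Hist1h2ao rest on a WT old library at 0, and no fold is given for them.

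Among H2B genes the members with the smallest p were Hist2h2bb (H2bc18), Hist1h2bc (H2bc4) and Hist1h2be (H2bc6). Hist2h2bb was at 7.73 and 5.91 CPM in WT old, 71.6, 36.9 and 71.6 CPM in PKO cSCC and 93.1, 69.6 and 45.7 CPM in DKO cSCC. Its log2 fold change was 3.22 ± 0.48 in PKO cSCC (edgeR adjusted p = 0.0526) and 3.40 ± 0.48 in DKO cSCC (edgeR adjusted p = 0.163). With all 20 libraries in the edgeR fit the adjusted p was 0.00323 and 0.0159. Hist1h2bc, the most abundant H2B gene by CPM, stood at 16.6 and 19.0 CPM in WT old, 179, 111 and 71.4 CPM in PKO cSCC and 80.4, 108 and 76.9 CPM in DKO cSCC. Its carcinoma libraries all lay above both WT old libraries, with log2 fold changes of 2.84 ± 0.44 and 2.36 ± 0.43. Hist1h2be was at 7.24 and 6.36 CPM in WT old, 46.1, 22.1 and 28.2 CPM in PKO cSCC and 43.5, 63.4 and 44.0 CPM in DKO cSCC, where its log2 fold change was 2.93 ± 0.41 (edgeR adjusted p = 0.163).

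Genes for the nucleosome core pair H3 and H4 followed. Hist1h3b (H3c2), the most abundant H3 gene by CPM, was at 10.3 and 9.65 CPM in WT old, 215, 57.5 and 70.6 CPM in PKO cSCC and 88.9, 131 and 74.4 CPM in DKO cSCC. Hist2h3b (H3c13) was at 6.57 and 7.41 CPM in WT old, 84.4, 29.6 and 49.8 CPM in PKO cSCC and 43.9, 68.6 and 58.6 CPM in DKO cSCC. In both, PKO cSCC 1 was the highest of the 20 libraries. Hist1h4d (H4c4), the most abundant H4 gene, went from 20.5 and 23.6 CPM in WT old to 179, 88.4 and 95.9 CPM in PKO cSCC and 93.9, 135 and 75.0 CPM in DKO cSCC. Hist4h4, the single gene of Hist4, was at 10.5 and 13.7 CPM in WT old, 66.0, 44.7 and 50.1 CPM in PKO cSCC and 122, 102 and 29.5 CPM in DKO cSCC, where the lowest value is the library labelled DKO cSCC 3. None of these 4 genes overlapped between carcinomas and WT old.

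**Figure D2:**
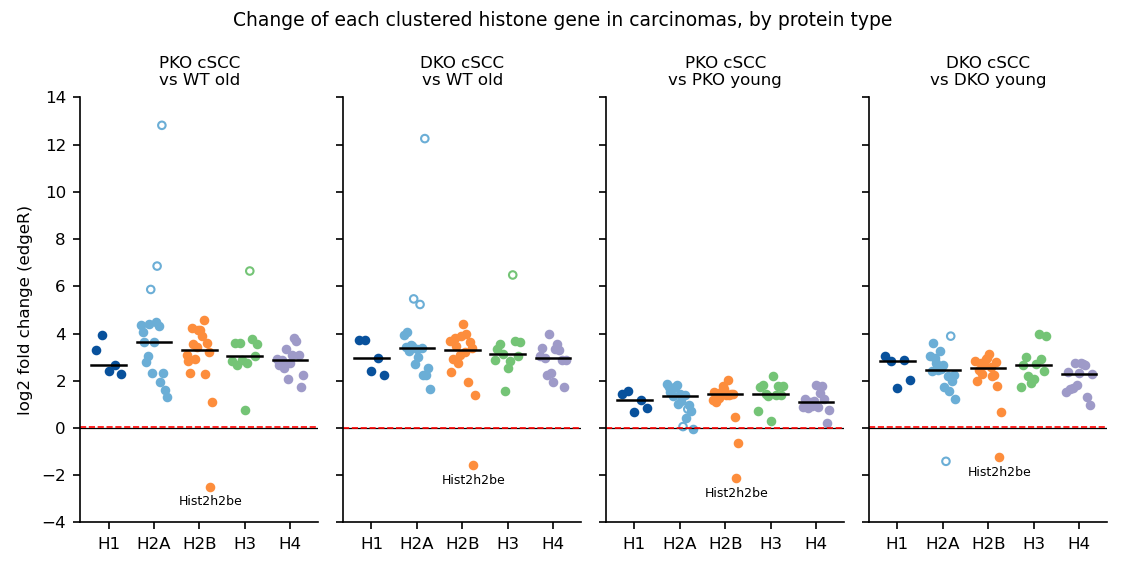
Log2 fold change (y axis, edgeR) of each of the 62 tested genes in 4 comparisons (panels), by histone type (x axis). Black bars are medians per type, the dashed red line is the median of all genes tested, and open circles are genes with a library at 0 in the reference group; Hist2h2be is named and is negative in all 4 panels.

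The size of the difference varied with the cluster. In PKO cSCC against WT old the median log2 fold change was 3.34 over the 50 tested Hist1 genes, 2.32 over 9 Hist2 genes, 1.21 over the 2 Hist3 genes and 2.23 for Hist4h4. In DKO cSCC the values were 3.34, 2.55, 1.51 and 2.87. The Hist3 values rest in part on Hist3h2ba, whose counts are low. It had 4 and 6 counts in WT old, 30, 3 and 3 in PKO cSCC and 17, 13 and 9 in DKO cSCC. Genes with the smaller positive values included Hist3h2a, at 7.32 and 10.03 CPM in WT old and 31.4, 15.7 and 13.96 CPM in PKO cSCC, and Hist2h4, at 6.99 and 4.19 CPM and 17.25, 13.6 and 21.98 CPM. These 2 were chosen after their values were seen. The difference between clusters was not tested.

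Hist2h2be (H2bc21) encodes an H2B protein of the Hist2 cluster, and its gene is known to give polyadenylated transcripts also outside S phase. It was the exception in both comparisons, at 3.49 and 1.27 CPM in WT old (42 and 17 counts), 0.424, 0.354 and 0.407 CPM in PKO cSCC (6, 6 and 7 counts) and 0.580, 0.526 and 1.26 CPM in DKO cSCC (8, 7 and 14 counts). All 6 carcinoma libraries were below both WT old libraries, and the highest of the 6 was the library labelled DKO cSCC 3. That library, at 1.26 CPM, was barely below WT old 2, at 1.27 CPM (14 and 17 counts). The log2 fold change was -2.49 ± 0.75 in PKO cSCC (edgeR adjusted p = 0.0974) and -1.57 ± 0.73 in DKO cSCC (edgeR adjusted p = 0.366). With all 20 libraries in the edgeR fit it was called lower in PKO cSCC (log2 fold change -2.55, adjusted p = 0.0224) and not in DKO cSCC (adjusted p = 0.196). Such counts are low, and their sampling error is large beside that of the other genes named. Polyadenylated transcripts are also described for Hist1h1c, Hist1h2bc and Hist1h2ac, whose carcinoma libraries all lay above those of WT old. Hist1h2ac was at 2.83 and 2.54 CPM in WT old and at 18.4 to 82.4 CPM in the carcinomas. A link between this trait and the direction of change was not tested.

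Hist2h2ac (H2ac20), the H2A gene across the shared promoter shown above, stood at 12.1 and 6.58 CPM in WT old, 42.7, 13 and 24.2 CPM in PKO cSCC and 43.8, 89.9 and 24.3 CPM in DKO cSCC. Its carcinoma libraries lay above those of WT old, with log2 fold changes of 1.59 ± 0.70 and 2.55 ± 0.73, which did not pass (edgeR adjusted p = 0.185 and 0.250). Of the 10 divergent pairs with both genes tested, this was the 1 pair with opposite signs in each carcinoma comparison against WT old. The count of pairs with opposite signs was 1 of 10 also in both comparisons of carcinomas with young epidermis.

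**Figure D3:**
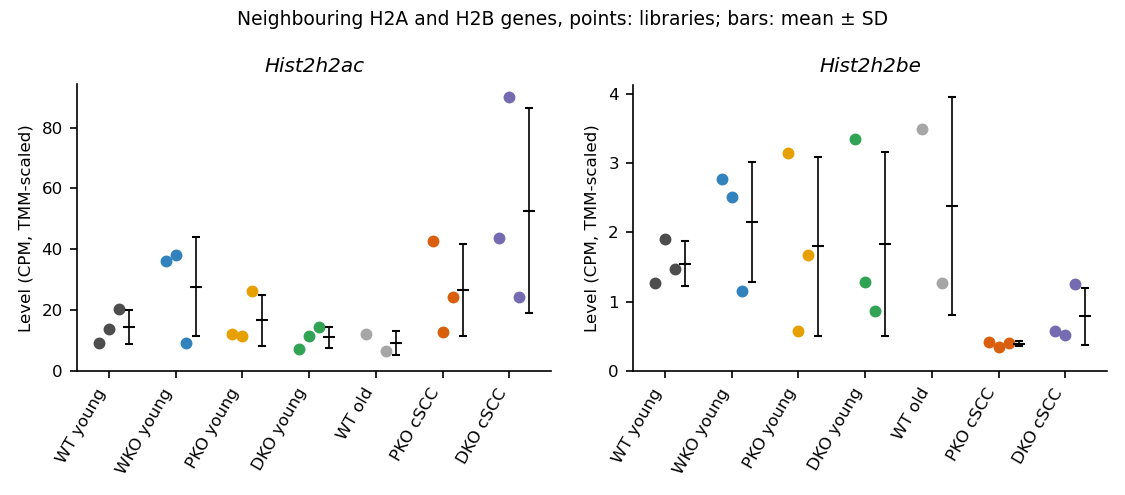
Level (y axis, TMM-scaled CPM) of Hist2h2ac and Hist2h2be, the genes of 1 divergent pair, in each library (points) by group (x axis), with mean and SD beside them. Hist2h2ac is highest in DKO cSCC 2 at 89.9 CPM, and Hist2h2be lies at 0.354 to 1.26 CPM in the carcinomas.

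The second comparison set PKO and DKO carcinomas side by side. No gene of the 62 was called in edgeR, where 0.00605% of all genes were called higher and 0% lower. At an unadjusted p under 0.05 the count was also 0, beside 4.88% of all genes higher and 3.22% lower. DESeq2 called 0 (1.09% of all genes higher, 0.139% lower), as did the edgeR fit of all 20 libraries (0.011% and 0%). The signs were balanced, with 30 genes higher and 32 lower in DKO cSCC, where 47.4% of all genes were higher, and a median log2 fold change of -0.01. The mean summed levels were 3591 ± 2081 CPM (SD, n = 3) in PKO cSCC and 3615 ± 975 CPM (n = 3) in DKO cSCC. The balance rests on PKO cSCC 1, which held the highest level of 43 of the 62 genes among all libraries. Without it the median was 0.69, and still 0 genes were called. The members with the smallest p were Hist1h3f (log2 fold change 1.77 ± 0.77, edgeR adjusted p = 0.617) and Hist1h3e (-1.30 ± 0.59, edgeR adjusted p = 0.619), both H3 genes. Their transcripts share 75.2% of the 31-base stretches of the shorter one. Hist1h3f was at 0.707, 7.26 and 10.004 CPM in PKO cSCC and 20.6, 26.5 and 15.6 CPM in DKO cSCC, and Hist1h3e at 127, 29.8 and 29.3 CPM and 19.9, 34.5 and 22.8 CPM. Every DKO cSCC library was above every PKO cSCC library for Hist1h3f, and the groups overlapped for Hist1h3e.

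The third comparison asked how carcinomas differ from young epidermis of the same genotype, in a fit of all 20 libraries. In DKO cSCC against DKO young, 50 of 62 genes rose and 0 fell (edgeR), where 3.27% of all genes rose and 4.03% fell. The median log2 fold change was 2.45, beside a summed level 4.57-fold higher on average, and 56 genes were higher in all 3 carcinoma libraries than in all 3 of DKO young (14.8% of all genes). The rise took in all 5 H1 genes, 13 of 17 H2A, 12 of 16 H2B, 9 of 11 H3 and 11 of 13 H4 genes. Without the libraries labelled DKO young 3 and DKO cSCC 3 the count was 52 of 62. It was 12 without DKO young 1, 23 without DKO young 2 and 26 without DKO cSCC 2. The share of all genes that rose was 4.46% without the doubted libraries, and 0.453%, 1.01% and 1.16% in the other 3 fits, so it was lower there too.

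The 3 largest rises were in Hist1h3h, Hist2h3c2 and Hist1h2ad. Hist2h3c2 (H3c15), an H3 gene, was at 2.56, 3.64 and 4.90 CPM in DKO young and 45.5, 63.1 and 56.4 CPM in DKO cSCC. Its log2 fold change was 3.89 ± 0.62 (edgeR adjusted p = 0.00419). Hist1h2ad (H2ac7), an H2A gene, was at 6.56, 4.21 and 11.2 CPM and then 78.0, 116 and 70.7 CPM (3.59 ± 0.67, edgeR adjusted p = 0.00782). Neither gene's groups overlapped. Hist1h3h (H3c10) was at 0.721, 0.357 and 1.06 CPM and then 9.93, 16.3 and 7.28 CPM (3.97 ± 1.16, edgeR adjusted p = 0.0487), and its low levels in DKO young leave the size of the change uncertain. Its call was lost without the libraries labelled DKO young 3 and DKO cSCC 3 (edgeR adjusted p = 0.0736). The smallest adjusted p was that of Hist1h2be (0.00203 in edgeR), at 6.75, 8.71 and 11.7 CPM and then 43.5, 63.4 and 44.0 CPM. Hist2h2be had a log2 fold change of -1.23 ± 0.65 (edgeR adjusted p = 0.258).

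In PKO cSCC against PKO young the same direction was smaller, with positive values for 59 of 62 genes and a median of 1.38 on the log2 scale. Here 10 genes rose and 0 fell (edgeR), where 5.33% of all genes rose and 6.16% fell: 2 H2B, 4 H3 and 4 H4 genes. The groups did not overlap for 18 higher genes (12% of all genes) and 1 lower gene (13%). The 3 largest rises were in Hist1h3g, Hist1h4i and Hist1h3c. Hist1h3g (H3c8) was at 2.32, 4.21 and 5.37 CPM in PKO young and 33.6, 9.44 and 10.3 CPM in PKO cSCC (2.21 ± 0.58, edgeR adjusted p = 0.0246). Hist1h4i (H4c9) was at 3.08, 1.98 and 4.26 CPM and then 16.3, 9.09 and 6.69 CPM (1.83 ± 0.45, edgeR adjusted p = 0.0184). Every PKO cSCC library exceeded every PKO young library for both. Hist1h3c (H3c3) was at 6.66, 2.80 and 4.82 CPM and then 25.4, 10.3 and 13.5 CPM (1.83 ± 0.45, edgeR adjusted p = 0.0195).

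This count rests on single libraries. Without PKO cSCC 1, 1 gene rose and 1 fell (3.21% and 3.53% of all genes), and the median was 0.54. Without the library labelled PKO young 2, 1 gene rose and 1 fell (2.14% and 4.17%). Without PKO young 1, 4 genes rose (2.78%), and without PKO cSCC 2, 21 rose (5.40%). Without the libraries labelled PKO young 2 and 3, 0 of the 63 genes then tested were called (0.235% of all genes higher), with a median of 1.51 and PKO young 1 assumed to vary like the other groups. With the PKO young and PKO cSCC libraries alone in the fit, 0 of the 61 genes then tested were called, and of all genes 0.0270% were called higher and 0.0202% lower. The library labelled PKO young 3, with T and NK cell genes at 3213 CPM, had the highest summed histone level of the young libraries, and the share of those cells in it was not tested. Hist2h2be was the 1 gene lower in all 3 carcinoma libraries, at 3.14, 0.577 and 1.67 CPM in PKO young, with a log2 fold change of -2.12 ± 0.67 (edgeR adjusted p = 0.0524). Whether the rise was larger in DKO than in PKO was tested as an interaction. The difference was positive for 61 of 62 genes, with a median of 1.17, but 0 passed in edgeR (smallest adjusted p = 0.242). It was called for 0 of all 18164 genes. Without the libraries labelled DKO young 3 and DKO cSCC 3 the median was 1.69, and without the libraries labelled PKO young 2 and 3 as well it was 1.48, with 0 called in both (edgeR, smallest adjusted p = 0.133 and 0.178).

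Across all groups, 6 of the 62 genes were higher in every one of the 6 carcinoma libraries than in every one of the 14 epidermis libraries: the H2B genes Hist1h2bc and Hist1h2be, the H3 genes Hist1h3b and Hist1h3g, and the H4 genes Hist1h4i and Hist1h4k. Of all 18164 genes 1.1% were. Leaving out the library labelled PKO young 3 raised the number to 28, and the share of all genes to 1.33%. No gene was below every epidermis library in all 6. WT old 2 held the lowest level of 32 of the genes and WT old 1 that of 15.

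Within young epidermis the genotypes were set against WT young. In WKO young, 2 of 62 genes rose and 0 fell (edgeR), below the 13.1% and 8.34% of all genes. Hist1h4b (H4c2), an H4 gene, was at 6.34, 6.45 and 10.6 CPM in WT young and 15.9, 25.9 and 11.8 CPM in WKO young, with no overlap (log2 fold change 1.17 ± 0.30, edgeR adjusted p = 0.0255). Hist1h3c was at 2.43, 4.82 and 3.78 CPM and then 10.3, 11.2 and 5.94 CPM, also with no overlap (1.30 ± 0.42, edgeR adjusted p = 0.0493). The median over the 62 genes was 0.32, with 51 positive. With all 20 libraries in the edgeR fit 1 gene was called higher (7.9% of all genes). Leaving out any 1 library left 0 or 1 of these calls, and neither was left without WT young 1, WT young 2 or WKO young 2.

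In PKO young 60 of 62 genes were higher than in WT young, with a median log2 fold change of 0.54, but 0 passed (edgeR), where 0.00601% of all genes rose and 0% fell. At an unadjusted p under 0.05, 9 genes were higher and 0 lower, beside 15.4% and 9.74% of all genes, and DESeq2 called 3 higher (7.62% of all genes) and 0 lower (4.1%). The edgeR fit of all 20 libraries called 0 (0.0165% of all genes higher). The members with the smallest p were Hist1h1c, at 119, 117 and 141 CPM in WT young and 243, 158 and 276 CPM in PKO young (0.81 ± 0.20, edgeR adjusted p = 0.0565), and Hist1h3a (1.03 ± 0.31, edgeR adjusted p = 0.0836). Hist1h3a (H3c1) was at 5.02, 6.32 and 5.93 CPM and then 12.6, 7.59 and 15.9 CPM. Neither overlapped between the groups. Without the library labelled PKO young 3 the median was 0.30 and 1 gene was called higher, where 11.87% of all genes were. Without the libraries labelled PKO young 2 and 3, which leaves 1 library assumed to vary like the other groups, 2 genes were called higher (5.54% of all genes).

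In DKO young the direction was the opposite, with 8 of 62 genes higher and 54 lower than in WT young, where 48.1% of all genes were higher, and a median of -0.52. None passed (edgeR), where 15.8% of all genes rose and 12.1% fell, and at an unadjusted p under 0.05 there were 0 higher (21.2% of all genes) and 2 lower (19.9%). DESeq2 called 1 lower (13.3% of all genes), and the edgeR fit of all 20 libraries called 0. The members with the smallest p were Hist1h2ak, at 11, 29.96 and 28 CPM in WT young and 9.44, 12.3 and 10.8 CPM in DKO young (-1.06 ± 0.42, edgeR adjusted p = 0.0819), and Hist2h3c2. Hist2h3c2 was at 4.30, 9.71 and 16.7 CPM and then 2.56, 3.64 and 4.90 CPM (-1.45 ± 0.57, edgeR adjusted p = 0.0830). Both overlapped through WT young 1. Without the library labelled DKO young 3, which had the highest sum of its group, 4 genes were called lower, where 10.0376% of all genes were, and without WT young 1, 3 were (5.29% of all genes). The interaction of the Wwox and p53 genotypes was negative for 61 of 62 genes, with a median of -1.48. Of these 0 passed (edgeR, smallest adjusted p = 0.111), and 0 of all 16627 genes were called. Without the library labelled DKO young 3 the median was -1.79 and 0 passed (edgeR, smallest adjusted p = 0.0891). Without the libraries labelled PKO young 2 and 3 as well, 3 genes passed (edgeR, smallest adjusted p = 0.0408), all with a negative difference, where 2.45% of all genes passed.

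Old wild-type epidermis had lower levels than young for 59 of 62 genes, with a median log2 fold change of -1.16 and a mean summed level 2.09-fold lower. None passed (edgeR), where 1.73% of all genes rose and 0.261% fell. At an unadjusted p under 0.05, 35 genes were lower and 0 higher, beside 9.09% and 13.8% of all genes, and DESeq2 called 16 lower (3.91% of all genes). In 38 genes both WT old libraries were below all 3 of WT young (21.4% of all genes). Hist1h1c was at 73.3 and 62.4 CPM in WT old (-0.87 ± 0.23, edgeR adjusted p = 0.0640). Hist2h2bb was at 20.7, 29.3 and 29.6 CPM in WT young and 7.73 and 5.91 CPM in WT old (-1.94 ± 0.54, edgeR adjusted p = 0.0737). Both had no overlap between the groups. The sum of T and NK cell markers was 1414 to 1826 CPM in these young libraries and 122 and 248 CPM in the old ones.

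**Figure D4:**
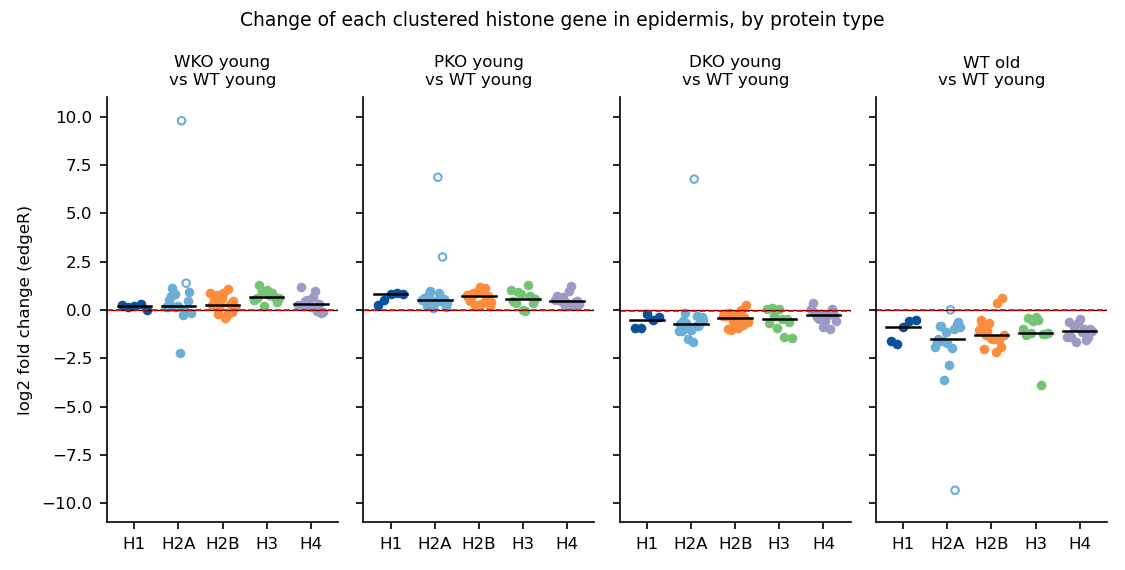
Log2 fold change (y axis, edgeR) of each of the 62 tested genes in epidermis against WT young (panels), by histone type (x axis), with medians, the all-gene median (dashed red) and open circles as in the plot of carcinoma changes. The medians over the 62 genes are 0.32 in WKO young, 0.54 in PKO young, -0.52 in DKO young and -1.16 in WT old.

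The other genes of DNA replication and histone supply were read from lists chosen for this purpose. The 26 S-phase genes, which encode replication factors such as the MCM helicase subunits, PCNA and ribonucleotide reductase, were all higher in carcinomas than in WT old, with a median log2 fold change of 1.64 in PKO cSCC and 1.26 in DKO cSCC and 0 called in edgeR. In the fit of all 20 libraries, 15 and 4 of them were called higher, beside 10.5% and 2.48% of all genes. In DKO cSCC against DKO young 10 of 26 rose and 0 fell, with a median of 1.26, where 3.27% of all genes rose and 4.03% fell. In PKO cSCC against PKO young 2 rose and 0 fell, with a median of 0.80, where 5.33% of all genes rose and 6.16% fell. Mki67, a marker of cycling cells, was at 103 and 59.3 CPM in WT old, 451, 99.7 and 250 CPM in PKO cSCC and 262, 421 and 294 CPM in DKO cSCC. PKO cSCC 2 lay within the range of WT old for it.

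The ratio of the summed histone level to the summed level of the 26 S-phase genes was 3.47 to 4.15 in PKO cSCC and 4.11 to 4.98 in DKO cSCC. It was 1.36 to 1.66 in WT old, 1.79 to 2.04 in WT young, 2.91 to 3.15 in PKO young and 2.05 to 2.64 in WKO young. The DKO young libraries had 1.94 and 1.69, and the one labelled DKO young 3 had 3.14. All 6 carcinoma libraries had a higher ratio than all 14 epidermis libraries. In PKO young against WT young the histone median was 0.54 while that of the S-phase genes was -0.06, with 10 of 26 higher. In DKO young 6 S-phase genes fell and 0 rose, where 12.1% of all genes fell and 15.8% rose. The median of the S-phase genes was -0.79.

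**Figure D5:**
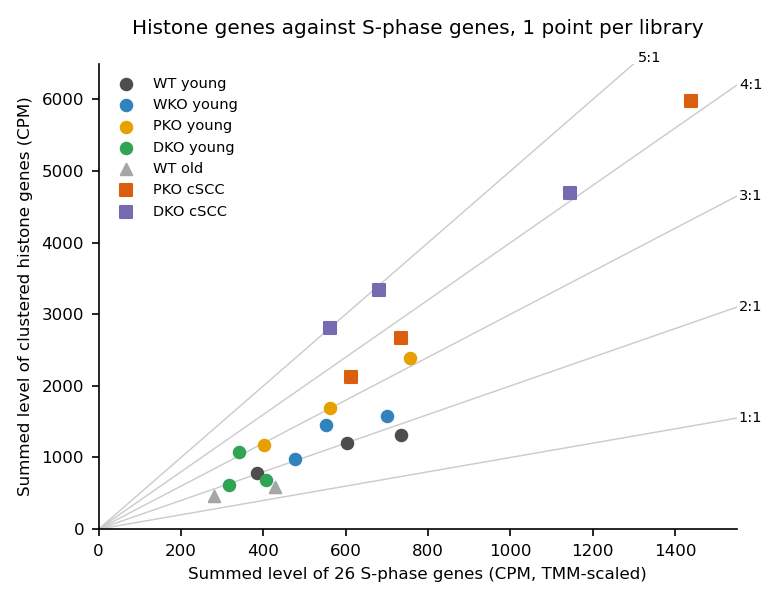
Summed level of the clustered histone genes (y axis, TMM-scaled CPM) against that of 26 S-phase genes (x axis), 1 point per library, coloured by group; grey lines mark equal ratios. The carcinoma libraries lie above the 3:1 line at ratios of 3.47 to 4.98, and WT old lies between 1.36 and 1.66. PKO young 1 and the libraries labelled PKO young 3 and DKO young 3 also lie above that line, at 3.01, 3.15 and 3.14.

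Genes that make and process histone mRNA differed less. The 16 genes of this list, among them Slbp, Npat (the activator of histone transcription) and Lsm11 (a U7 snRNP subunit), had a median log2 fold change of 0.70 in PKO cSCC and 0.30 in DKO cSCC against WT old, with 0 called in edgeR. In DKO cSCC against DKO young 1 of 16 rose (3.27% of all genes), with a median of 0.06, and in PKO cSCC against PKO young 2 rose (5.33%). Slbp was at 19.1 and 23.1 CPM in WT old, 41.6, 38.6 and 29.7 CPM in PKO cSCC and 37.2, 38.7 and 22.9 CPM in DKO cSCC. Only the library labelled DKO cSCC 3 fell within the WT old range. Of the 16 histone chaperones and assembly factors, 14 were higher in each carcinoma group than in WT old, with medians of 1.05 and 0.54 and 0 called. The 11 replication-independent histone variants had medians of 0.82 and 0.56, with 11 and 10 higher and 0 called, beside 3.10 and 3.23 for the clustered genes.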

How the data were processed

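Sorted cells gave total RNA, of which 5 ng per library went into a stranded low-input kit, per the labels' protocols. What the authors deposited are estimated counts (expected counts) for each Ensembl gene, as whole numbers. Trim Galore 0.4.1, FastQC 0.11.5, Salmon 0.13.1, a DESeq2 release (1.28.1) and mouse build mm39 appear in the submitters' processing notes, without role or order. Whether molecular identifiers entered the counting was not stated in what was read here, so counts were used as deposited. Symbols came from GENCODE (GRCm38) for 48246 of 51123 identifiers.

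The tests used edgeR 4.0.16 in R 4.3.3, with TMM scaling, filterByExpr, the quasi-likelihood F test and Benjamini-Hochberg adjustment at 0.05 over all genes tested. Carcinomas against WT old shared a fit of 8 libraries (16526 genes), young genotypes a fit of 12 (16627), WT old against WT young a fit of 14 (17622), and carcinomas against young epidermis a fit of 20 (18164). Group was the only term. The error of a log2 fold change is its standard error (SE). Levels are TMM-scaled CPM over all 20 libraries, and sums were not tested. Alternatives were RLE scaling, no low-count filter, DESeq2 1.42.0, the replicate number as a block, other libraries in the fit and the omission of single libraries. Chosen after seeing the data were the omission of the doubted libraries together and the interaction tests with and without them. So was the summing of near-identical copies (4 pairs sharing over 90% of the 31-base stretches of the shorter transcript). The edgeR step was tested on simulated counts.

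Named genes were the 2 highest of each histone type over all libraries and, per comparison, the 3 largest called rises and falls or else the 2 with the smallest p, with Wwox, Trp53 and Mki67. The members and lists were chosen with earlier results of these data known. Hist2h2be, Hist2h2ac, Hist3h2a, Hist3h2ba, Hist2h4 and, outside its own comparisons, Hist1h2be were singled out after their values were seen, as were Slbp, Npat and Lsm11.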

Additional observations from a re-analysis of the deposited data

How the results depend on the processing

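Of the called genes, direction was followed only for those named per comparison, and none of these changed direction under the alternatives run. The median of DKO cSCC against PKO cSCC, near 0, ran from -0.26 to 0.69 as single libraries were left out. Counts of called genes moved in the following cases. With no low-count filter they were 56 in PKO cSCC and 53 in DKO cSCC against WT old, where 2.95% and 1.40% of all genes were called higher. They were 7 in WT old against WT young, all lower, where 0.653% of all genes were called lower. With DESeq2 they were 56 and 54 in the same carcinoma comparisons, 3 in PKO young and 1 in DKO young. They were 16 in WT old against WT young and 20 in PKO cSCC against PKO young. In the last, 19 genes were higher and 1 lower, where 7.85% and 9.59% of all genes were. With all 20 libraries in the fit they were 56 and 49 for the carcinomas against WT old and 1 in WKO young, and RLE scaling also left 1 in WKO young. With only the compared groups in the fit, 0 were called in PKO cSCC against PKO young. Leaving out each library in turn gave 0 to 7 calls in PKO cSCC against WT old, 0 to 1 in WKO young, 0 to 1 in PKO young, 0 to 4 in DKO young, 2 to 21 in PKO cSCC against PKO young and 12 to 54 in DKO cSCC against DKO young. The counts stayed at 0 in the other 3 comparisons. In WKO young the same omissions called 4.51% to 11.5% of all genes higher, so 0 or 1 of 62 lay below that share. The 4 calls in DKO young were lower, where 10.0376% of all genes were. The 54 calls came without the library labelled DKO cSCC 3, where 5.28% of all genes rose. The 12 calls came without DKO young 1, where 0.453% of all genes rose. Without the libraries labelled PKO young 2 and 3 the counts were 2 in PKO young and 0 in PKO cSCC against PKO young, and the Wwox and p53 interaction went from 0 to 3 calls without these and the library labelled DKO young 3. The cause was not tested. Correlations between the deviations of same-numbered libraries ran from -0.368 to 0.326 and were not all above 0.1 in any comparison. In WKO young against WT young they were 0.246, 0.141 and 0.0567. With 2 or 3 libraries per group these values cannot exclude a pairing, and the main fits used none. With the replicate number as a block, 0 genes were called in WKO young, where 9.51% of all genes rose and 4.66% fell. The block left 3 rises in PKO cSCC against PKO young (3.65% of all genes) and 39 in DKO cSCC against DKO young (2.01%). It gave 0 calls in the other 6 comparisons, among them DKO young, where 12.9% of all genes rose and 8.73% fell. Summed levels per group moved by less than 1 SD under RLE scaling and without TMM scaling.

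WT old has only 2 libraries. By Wwox or Trp53 level, 2 libraries labelled DKO go against their labels. Of the 3 labelled PKO young, 2 hold Trp53 well above the third. Depth limits the low genes such as Hist2h2be, with 6 to 51 counts a library, and estimated counts of near-identical copies carry the error of splitting reads.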

Other observations

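The levels of some alike copies are given side by side, for pairs chosen after their values were seen. Hist1h3f was at 0.707 CPM in PKO cSCC 1 and 1.17 CPM in the library labelled PKO young 3, its lowest levels, and Hist1h3e was at 127 and 43.9 CPM in the same libraries, its highest. The sum of the pair was 128 CPM in PKO cSCC 1, 45.1 CPM in the library labelled PKO young 3, 7.61 to 29.7 CPM in the other epidermis libraries and 37.1 to 61.0 CPM in the other carcinomas. Hist1h2ao was at 21.1 CPM in WKO young 1 and at most 2.64 CPM elsewhere, and Hist1h2ap was at 24.6 CPM in WKO young 1 and 53.04 and 25.3 CPM in the other WKO young libraries. Hist2h2aa2 was at 0 in 10 of 20 libraries and between 8.85 and 81.4 CPM in the others, beside 77.8 to 486 CPM for Hist2h2aa1. The 4 pairs that share over 90% of the 31-base stretches of the shorter transcript were also summed before the fit. This leaves Hist1h3e and Hist1h3f apart. Then 50 of 59 genes rose in DKO cSCC against DKO young (3.27% of all genes) and 11 of 59 in PKO cSCC against PKO young (5.34%).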
